A study of Mus musculus with 8 samples.

Results

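Epithelial sheets such as the bile duct lining seal the gaps between cells with tight junctions, belts of claudins and other membrane proteins that are tied on the inside to scaffold proteins. Claudins decide which ions and solutes pass between the cells, since some members tighten the seal and others form ion-selective pores. Polarity complexes set the border between the membrane that faces bile and the membrane that faces the tissue, and desmosomes, which lie below the tight junctions, rivet neighbouring cells together. A set of transcription factors, splicing factors and trafficking proteins keeps these genes and their products in place in epithelial cells.

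The levels of 34 such genes were followed in the 8 RNA sequencing libraries of the series. They were 10 claudins, 4 other transmembrane proteins of tight junctions, 3 scaffolds, 5 polarity genes, 5 genes of the desmosomal plaque and related proteins, and 7 regulators. The genes were chosen by symbol out of 20377 gene symbols in the deposited tables, and for each symbol the transcript with the most counts over all libraries was kept. All 34 were present and all 34 passed the filter on low counts.

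Non-parenchymal cells (the cells other than hepatocytes) came from livers of wild type C57BL/6 mice. Flow cytometry kept MIC1-1C3+CD26- cells that were not blood cells, MIC1-1C3 being an antibody that marks duct cells. They were divided by surface ST14 (matriptase, a membrane-anchored protease of epithelia) into ST14high and ST14low, with 4 libraries each, replicates 1 to 4. The labels state neither age nor sex nor whether libraries came from separate animals, so the spread behind each p-value is that between libraries and may be technical. Totals ran from 6398307 counts in ST14low replicate 3 to 42769980 in ST14high replicate 3. Values are given as CPM (counts scaled to library size with TMM factors) to compare libraries, and as the deposited RPKM (scaled to transcript length and depth) to compare genes.

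The libraries carried duct markers and also markers of other cells. Of 12 duct cell markers, 11 were above 70 CPM in every library. The St14 transcript itself was at 286 to 354 CPM in ST14high and at 278 to 391 CPM in ST14low. Dpp4, which encodes the CD26 that the sort removed by surface staining, was at 141 to 179.7 CPM and 107 to 186 CPM. ST14high replicate 1 stood apart on the first principal component. Its 10 pancreatic acinar markers summed to 10116 CPM, against 1462 CPM in ST14high replicate 2 and at most 114 CPM elsewhere, with Amy2a5 at 0 in all libraries. Its 10 markers of mesothelium and fibroblasts summed to 2718 CPM, against 449 to 704 CPM in the other ST14high libraries and 91.7 to 206.9 CPM in ST14low. The 8 hepatocyte markers summed to 4818 to 12197 CPM in ST14high and to 7585 to 14093 CPM in ST14low. The 7 macrophage markers summed to 241 to 293 CPM and to 299 to 743 CPM, sums that do not overlap. Csf1r made up most of the sum in every ST14high library. It was at 161 to 236 CPM in ST14high and 199 to 312 CPM in ST14low, overlapping ranges. Of the 7 markers, 2 were lower in every ST14high library than in any ST14low library, as were 2.33% of all genes. The part of these cells in the values below was not tested. In bulk RNA, a change in the share of a cell type and a change in its RNA per cell cannot be told apart.

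Most of the junction genes had log2 fold changes near 0. The 3 with a log2 fold change of 0.5 or more in size were Cldn15, Ovol1 and Cldn1. The median log2 fold change (ST14high over ST14low) over the 34 genes was -0.02, beside 0.00 over all 13749 genes tested. Of the 34, 31 lay within 0.5 of 0, as did 11036 of the 13749. The 95% intervals of some of them reach past 0.5, such as Cldn4 (-1.15 to 1.28) and Cldn2 (-0.61 to 1.13). For these a difference of that size may have been missed. In edgeR's quasi-likelihood test 0 of the 34 passed an adjusted p of 0.05, as did 0 of all genes (0%). At an unadjusted p under 0.05 there were 2 of the 34, Cldn15 and Pard6b, where the same holds for 9.56% of all genes. The populations did not overlap in 3 of the 34, Cldn15, Pard6b and Esrp2, all higher in ST14high. Over all genes 6.42% are separated, 4.09% with ST14high higher and 2.33% with it lower, so counts of 2 and 3 among 34 lie near the background. DESeq2's Wald test called 1 of the 34, Cldn15, and 1.72% of all genes. Without ST14high replicate 1 it again called 1, Cldn15, and 2.04% of all genes.

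**Figure D1:**
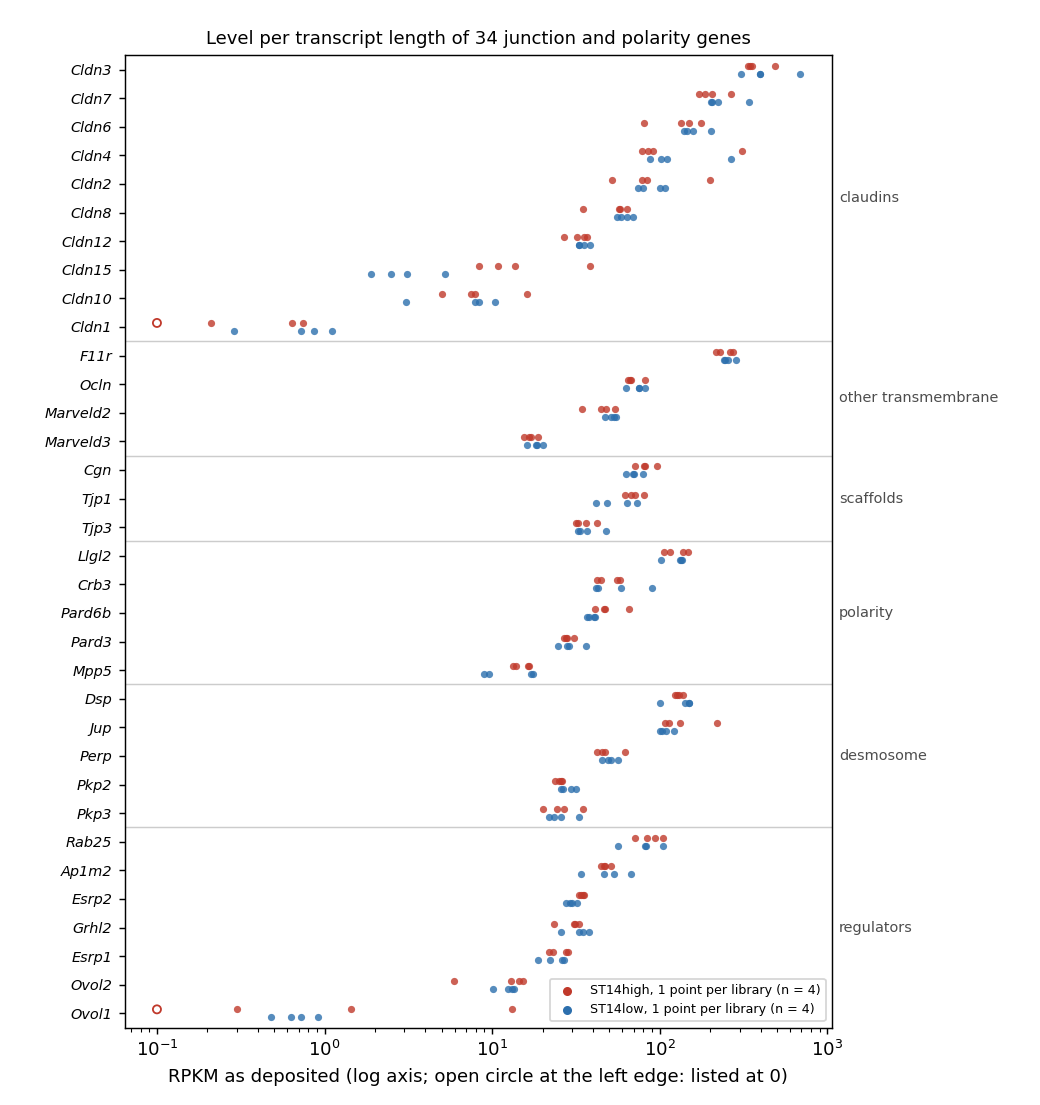
Deposited RPKM (log axis) of the 34 genes, grouped by role and ordered by mean within each group, with 1 point per library for ST14high (red) and ST14low (blue) and open circles at the left edge for values listed at 0. Cldn3 tops the order and Cldn1 ends it, and the points of both colours overlap in most rows, with Cldn15 as the clearest exception.

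The ducts carried a claudin set led by Cldn3 among the 10 claudins of the 34 genes. Mean RPKM over the 8 libraries was 415 for Cldn3, 225 for Cldn7, 149 for Cldn6, 141 for Cldn4, 97.1 for Cldn2, 57.7 for Cldn8 and 33.8 for Cldn12, and then 10.5 for Cldn15, 8.27 for Cldn10 and 0.571 for Cldn1. Cldn3 and Cldn4 are barrier-forming claudins of many simple epithelia, and Cldn7 is a claudin found along much of the lateral membrane. The order was firm in places: Cldn3 exceeded the next gene of all 34, F11r, in 8 of 8 libraries, and Cldn7 exceeded Cldn6 in 8 of 8. Cldn6 exceeded Cldn4 in only 6 of 8, so these neighbours do not differ beyond their spread. Shares were taken of the summed RPKM of these 10 claudins. Cldn3 took 35.7% ± 7.01 (mean ± SD, n = 4) in ST14high and 36.9% ± 3.08 in ST14low, and Cldn7 19.2% ± 2.02 and 20.5% ± 1.06.

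Cldn3 was at 466, 418, 604 and 403 CPM in ST14high replicates 1 to 4 and at 483, 854, 372 and 468 CPM in ST14low replicates 1 to 4. The ranges overlapped and ST14low replicate 2 was highest, with a log2 fold change of -0.20 (SE 0.26, 95% interval -0.77 to 0.37). Cldn3 and Cldn4 are neighbours on chromosome 5 of mm9, on opposite strands and 39278 bases apart with no other listed gene between them. Cldn4 was at 603, 156, 141 and 147 CPM in ST14high and at 193, 478, 179 and 150 CPM in ST14low. In each population 1 library stood far above the other 3, replicate 1 of ST14high and replicate 2 of ST14low. Over all libraries the log2 fold change was 0.07 (SE 0.54). Without ST14high replicate 1 it was -0.76 and without ST14low replicate 2 it was 0.58.

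Cldn6 is a claudin best known from embryonic epithelia, and it had rank 4 among the 34 by RPKM. Its CPM ran from 123 to 250 in ST14high and from 192 to 288 in ST14low, and the lowest value was that of ST14high replicate 1. On chromosome 17 its convergent neighbour Cldn9 lies 135 bases away and had a mean RPKM of 0.315 over the 8 libraries, against 149 for Cldn6. Cldn2, a claudin that forms pores for small cations and water, was at 653, 226, 253 and 152 CPM in ST14high and at 299, 241, 219 and 311 CPM in ST14low. ST14high replicate 1 was again far above the rest, where Cldn2 reached 0.575 of the Cldn3 RPKM, against 0.116 to 0.272 in the other 7 libraries. The log2 fold change of Cldn2 was 0.26 (SE 0.39) with all libraries and -0.35 without ST14high replicate 1. Cldn8, a barrier-forming claudin, and Cldn12 had log2 fold changes of -0.20 (SE 0.16) and -0.07 (SE 0.12). Cldn12 varied little, at 107 to 138 CPM over all libraries.

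Cldn10 and Cldn1 were low in all libraries. Cldn10, an ion-pore claudin with transcripts from separate start sites, was at 3.87 to 12.05 CPM in ST14high and 2.31 to 7.88 CPM in ST14low. Cldn1 was represented by 287 counts in all 8 libraries. It had 11, 55, 0 and 65 counts in ST14high and 62, 44, 22 and 28 in ST14low. The 0 fell in the deepest library, where 3 counts, the limit that a count of 0 allows, correspond to 0.0701 CPM of the total. ST14high replicate 4 held the most counts, at 1.93 CPM, but by CPM ST14low replicate 3 was highest, at 3.39 CPM. Its log2 fold change of -0.91 had an SE of 1.07 and an interval from -3.29 to 1.47, so no difference was detectable at this depth and spread.

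Cldn15 was the claudin with the largest difference. It encodes a cation-pore claudin best known from the intestine. The counted transcript, NM_021719, spans positions 137443738 to 137451715 of chromosome 5 in mm9 on the plus strand. It was at 70.1, 13.4, 18.1 and 22.4 CPM in ST14high and at 4.09, 5.23, 8.64 and 3.06 CPM in ST14low. Every ST14high library lay above every ST14low library, and ST14high replicate 1 lay above the other ST14high libraries. The means were 31.0 ± 26.3 CPM and 5.26 ± 2.42 CPM (SD, n = 4 each). The log2 fold change was 2.59 (SE 0.56, 95% interval 1.35 to 3.84), with an unadjusted p of 0.000943 and an adjusted p of 0.192 in edgeR. DESeq2 gave an adjusted p of 0.000228. Over the other settings tried its adjusted p ran from 0.000228 to 0.598, and it passed in DESeq2 only. Without ST14high replicate 1 the log2 fold change was 1.82, with an adjusted p of 0.141 in edgeR and 0.000587 in DESeq2.

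Genes of mesothelium, the cell layer over the liver surface, were set beside Cldn15 in each library. Of the 10 markers of mesothelium and fibroblasts, 8 were higher in every ST14high library than in any ST14low library, as were 4.09% of all genes. Lum and Acta2 overlapped. In ST14low, Msln, Upk1b and Wt1 were highest in replicate 3, as Cldn15 was, but Col1a1, Col3a1 and Dcn were highest in replicate 4. Upk3b, a mesothelial membrane protein, was at 302, 47.9, 71.1 and 62.0 CPM in ST14high and at 10.3, 9.12, 22.5 and 7.47 CPM in ST14low. Replicate 1 was highest in ST14high and replicate 3 in ST14low, for Upk3b as for Cldn15. The order of the other libraries differed: after replicate 1 of ST14high, Cldn15 was highest in replicate 4 and Upk3b in replicate 3. The ratio of Cldn15 to Upk3b CPM ran from 0.232 to 0.362 in ST14high and from 0.384 to 0.573 in ST14low. The ratio of Epcam, an epithelial adhesion molecule, to Upk3b ran from 1.74 to 11.4 in ST14high and from 22.6 to 84.5 in ST14low. The part of mesothelial RNA in the Cldn15 difference was not tested.

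**Figure D2:**
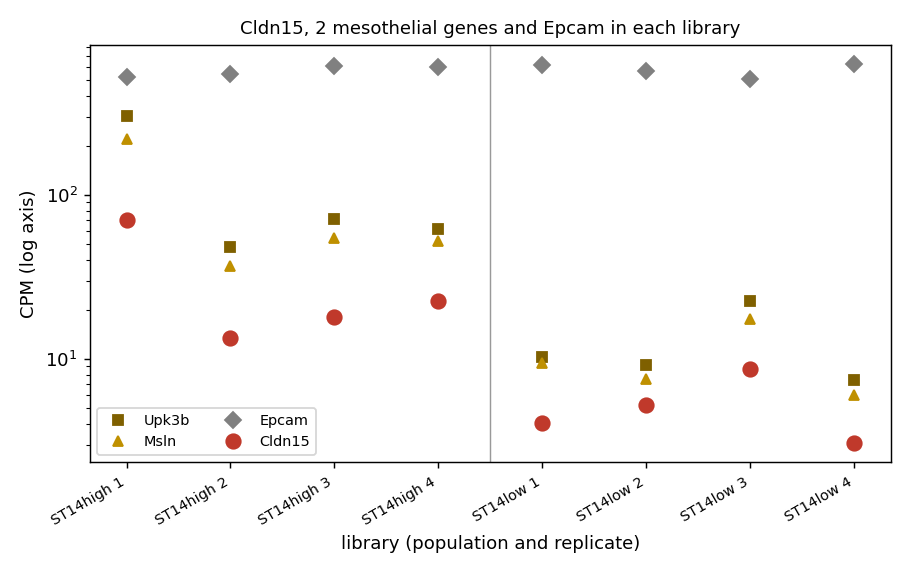
CPM (log axis) of Cldn15, the mesothelial genes Upk3b and Msln, and Epcam in each of the 8 libraries. Cldn15, Upk3b and Msln are highest in ST14high replicate 1 and lower in all ST14low libraries than in any ST14high library, while Epcam lies between 509.5 and 632 CPM throughout.

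The promoter of Cldn15 is shown because it is the member whose populations lie farthest apart. These are the 250 bases before its annotated start in RefSeq on GRCm38.p6, at chr5:136967619-136967868 on the plus strand, in lower case since no motif searched was found in it.
Cldn15: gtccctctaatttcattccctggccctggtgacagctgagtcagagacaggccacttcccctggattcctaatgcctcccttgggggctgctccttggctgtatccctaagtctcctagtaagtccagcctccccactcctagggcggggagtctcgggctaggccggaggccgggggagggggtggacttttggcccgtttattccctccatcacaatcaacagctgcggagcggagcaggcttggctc
Its GC content is 60.8%.

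The other transmembrane proteins were steady. F11r encodes JAM-A, an immunoglobulin-type adhesion molecule of tight junctions, and was second among the 34 by RPKM. It was at 510, 543, 590 and 481 CPM in ST14high and at 603, 530, 521 and 530 CPM in ST14low, overlapping ranges with a log2 fold change of -0.04 (SE 0.13). Ocln (occludin) was at 181 to 258 CPM in ST14high and 183 to 229.9 CPM in ST14low, with a log2 fold change of -0.03 (SE 0.15). Marveld2 encodes tricellulin, which seals the points where 3 cells meet, and lies 43457 bases from Ocln on the same strand of chromosome 13. Marveld2 and its relative Marveld3 had log2 fold changes of -0.18 (SE 0.13) and -0.09 (SE 0.13). Their 95% intervals end at 0.12 and 0.20, so a rise of 0.5 on the log2 scale lies outside both.

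None of the 3 scaffolds passed the test, and their populations overlapped. Cgn encodes cingulin, which links the junction to the cytoskeleton, and had the highest mean RPKM of the scaffolds at 76.5. It was at 332, 337, 347 and 402 CPM in ST14high and at 298, 274, 335 and 287 CPM in ST14low. Only ST14low replicate 3 reached into the ST14high range. The log2 fold change was 0.25 (SE 0.12, adjusted p = 0.562 in edgeR). Tjp1, which encodes the central scaffold ZO-1, was at 532, 358, 413 and 422 CPM in ST14high and at 290, 257, 437 and 373 CPM in ST14low, with a log2 fold change of 0.35 (SE 0.20). Its adjusted p in edgeR was 0.599. The low values were those of ST14low replicates 1 and 2. Tjp3, which encodes ZO-3, had a log2 fold change of -0.04 (SE 0.18). Its end overlaps Apba3 on the opposite strand, and reads there cannot be told apart without strand.

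None of the 5 polarity genes passed the adjusted threshold in edgeR. The largest log2 fold change among them was that of Pard6b, which encodes a PAR6 adaptor of the PAR complex. Pard6b was at 236, 149, 155 and 132 CPM in ST14high and at 132, 122, 123 and 131 CPM in ST14low. The margin was narrow: the highest ST14low value was 131.9 CPM (replicate 1) and the lowest ST14high value 132.4 CPM (replicate 4). ST14high replicate 1 was highest. The log2 fold change was 0.40 (SE 0.18), with an unadjusted p of 0.048 and an adjusted p of 0.518 in edgeR. It was 0.19 without ST14high replicate 1. The populations overlapped with library sizes scaled by upper quartiles or by DESeq2's factors and with no filter on low counts. They also overlapped when ST14high replicate 3 or ST14low replicate 2 was left out, and when the latter was left out along with ST14high replicate 1. Llgl2, a basolateral polarity gene, had the highest mean RPKM of the group at 126. It was at 303, 343, 390 and 293 CPM in ST14high and at 265, 356, 351 and 333 CPM in ST14low, overlapping ranges with a log2 fold change of 0.03 (SE 0.15). Pard3, which encodes the PAR3 scaffold, Crb3, the Crumbs protein of simple epithelia, and Mpp5 (PALS1, its partner) had log2 fold changes of -0.03 (SE 0.14), -0.20 (SE 0.26) and 0.22 (SE 0.24).

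Of the desmosomal genes, Dsp (desmoplakin, which ties the plaque to keratin filaments) had the highest RPKM at 133. Dsp was at 1216, 1145, 1146 and 1049 CPM in ST14high and at 1299.7, 888, 1287 and 1190.3 CPM in ST14low. The ranges overlapped and ST14low replicate 2 was lowest, with a log2 fold change of -0.03 (SE 0.16). Jup (plakoglobin, a plaque protein shared with adherens junctions) was at 648, 276, 359 and 299 CPM in ST14high and at 323, 275, 273 and 283 CPM in ST14low. ST14high replicate 1 was highest, and the log2 fold change of 0.46 (SE 0.25) was 0.11 without that library. Pkp2 and Pkp3 encode plakophilins of the plaque, and Perp a membrane protein needed for desmosomes. Their log2 fold changes were -0.15 (SE 0.12), 0.07 (SE 0.22) and -0.00 (SE 0.17).

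**Figure D3:**
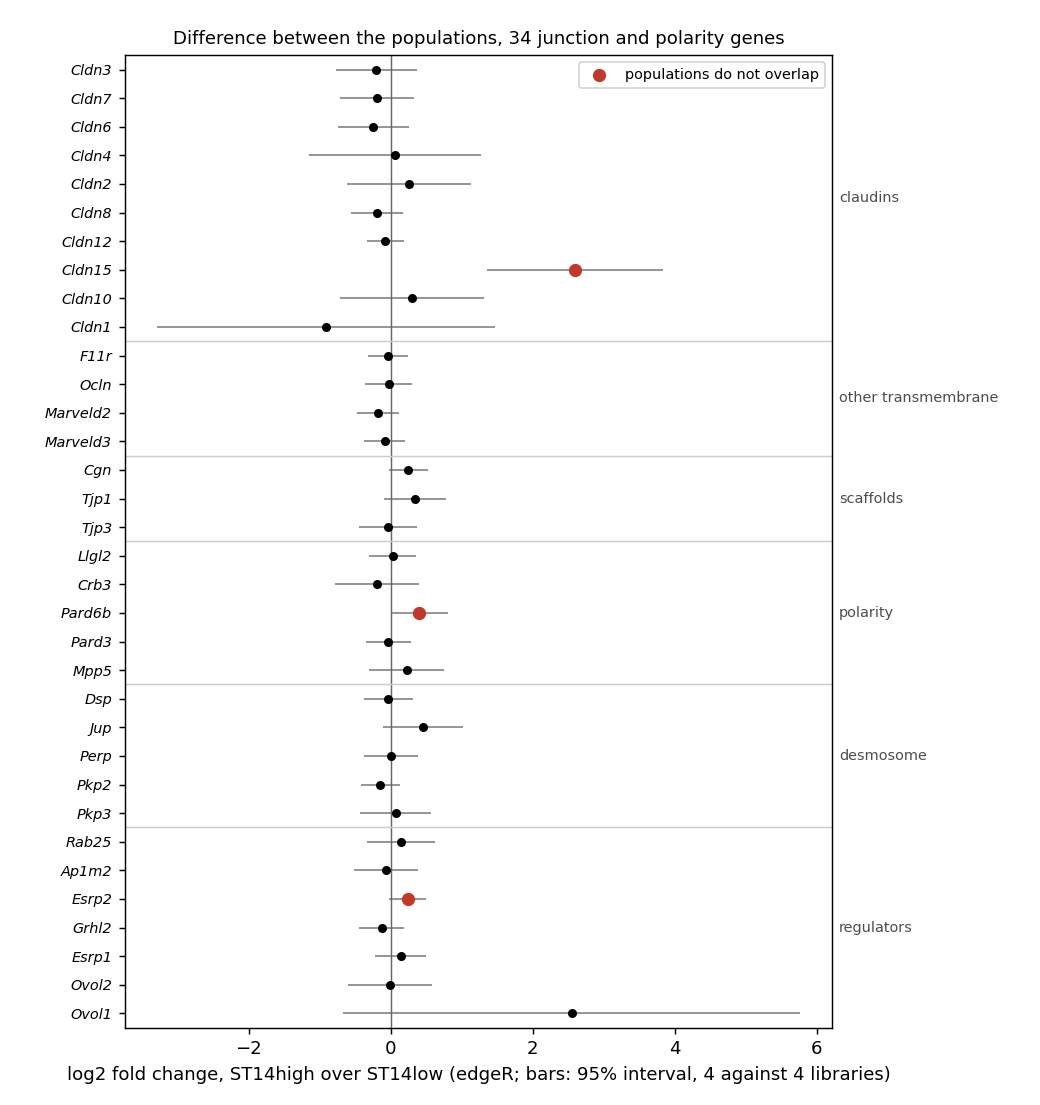
Log2 fold change of ST14high over ST14low for the 34 genes, with 95% intervals from edgeR over 4 against 4 libraries; red points mark the 3 genes whose populations do not overlap. The interval of Cldn15 runs from 1.35 to 3.84, and those of Cldn1 and Ovol1 are the widest.

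Apart from Ovol1, the regulators had log2 fold changes between -0.13 and 0.24. Grhl2, a transcription factor that keeps epithelial junction genes active, was at 112 to 146 CPM in ST14high and 115 to 160.0 CPM in ST14low (log2 fold change -0.13, SE 0.14). Rab25, a small GTPase of apical recycling, had the highest mean RPKM of the group at 85.0. Rab25 was at 101, 70.5, 63.5 and 80.0 CPM in ST14high and at 70.7, 94.0, 48.6 and 70.9 CPM in ST14low, overlapping ranges with a log2 fold change of 0.15 (SE 0.21). Ap1m2, the epithelial subunit of an adaptor that sorts basolateral cargo, had a log2 fold change of -0.07 (SE 0.20).

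Esrp1 and Esrp2 encode splicing factors that set the epithelial form of many transcripts. Esrp2 was at 81.5, 71.9, 72.4 and 69.0 CPM in ST14high and at 61.2, 59.7, 67.1 and 62.2 CPM in ST14low. The populations did not overlap, and the nearest libraries were at 67.1 and 69.0 CPM. They stayed apart under every setting tried, but many settings could hardly show an overlap. DESeq2, limma and the replicate block used the same CPM as other settings, and leaving out a library changes only the scaling of the rest. The log2 fold change was 0.24 (SE 0.12, 95% interval -0.02 to 0.50, adjusted p = 0.548 in edgeR). Esrp1 had a log2 fold change of 0.14 (SE 0.16) and overlapping populations.

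Ovol1 and Ovol2 encode zinc finger repressors that hold cells in the epithelial state. Ovol2 was at 8.59, 18.4, 17.4 and 19.7 CPM in ST14high and at 13.6 to 17.7 CPM in ST14low (log2 fold change -0.01, SE 0.26). Ovol1 was at 39.5, 3.78, 0.83 and 0 CPM in ST14high and at 1.96, 1.33, 1.70 and 2.44 CPM in ST14low. Of its 916 counts, 625 came from ST14high replicate 1 and 0 from ST14high replicate 4. Its log2 fold change of 2.55 had an SE of 1.44 and turned to -0.29 without ST14high replicate 1. In that library Ovol1 was the highest and Ovol2 the lowest of all 8.

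Repressors of the Snail and ZEB families are known to bind E-boxes of the form CACCTG in epithelial genes. RefSeq promoters on GRCm38.p6 were found for 23 of the 34 genes, and CACCTG was searched on both strands (CACCTG or CAGGTG) in the 250 bases before each start. It was present in 11 of the 23 (47.8%): Ap1m2, Cldn4, Cldn6, Cldn7, Crb3, F11r, Ocln, Pard3, Pard6b, Rab25 and Tjp3. Over all 27025 symbols with a promoter it was present in 19.4%. A symbol counted as a match if any of its annotated starts had the motif, so symbols with more starts had more chances. The 27025 symbols were not limited to genes found in these libraries, so the 2 shares are not on equal footing. The motif AACCNGTT (both strands), close to that of Grainyhead-like factors such as Grhl2, was present in 2 of the 23, Cgn and Rab25 (8.70%), and in 540 of the 27025 symbols. Stretches around these letters are shown for 6 genes to let the sites be read, with the motif in capitals. They lie at chr5:134946935-134946968 (minus strand) for Cldn4, chr17:23679252-23679297 (plus) for Cldn6, chr1:171437419-171437464 (plus) for F11r and chr2:168080898-168080943 (plus) for Pard6b, and for the AACCNGTT form at chr3:94786484-94786531 (minus) for Cgn and chr3:88548354-88548401 (minus) for Rab25.
Cldn4: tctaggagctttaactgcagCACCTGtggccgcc
Cldn6: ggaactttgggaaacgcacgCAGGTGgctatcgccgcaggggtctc
F11r: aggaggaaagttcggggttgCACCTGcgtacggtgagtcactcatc
Pard6b: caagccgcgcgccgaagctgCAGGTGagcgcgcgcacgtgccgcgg
Cgn: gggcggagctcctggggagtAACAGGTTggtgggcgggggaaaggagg
Rab25: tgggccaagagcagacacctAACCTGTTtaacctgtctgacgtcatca
The motifs were chosen with the values of the genes known, and a match is a description of letters. Of these repressors, Snai1 was at 0 to 4.80 CPM and Snai2 at 0 to 1.26 CPM over all libraries. Zeb2 was at 2.13 to 39.9 CPM, highest in ST14high replicate 1 and lowest in ST14high replicate 3.

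The 34 genes varied from library to library in ways that the populations do not describe. In ST14high replicate 1, Cldn2, Cldn4, Cldn15, Ocln, Tjp1, Pard6b and Mpp5 were the highest of all 8 libraries. So were Pkp3, Jup, Perp, Ovol1, Esrp1, Esrp2 and Rab25. Lowest in that library were Cldn6, Cldn8, Cldn12, Marveld2, Grhl2 and Ovol2. Cldn15, Pard6b and Esrp2, whose populations did not overlap, were thus all highest there. The acinar and mesothelial markers given above were highest in the same library, and their part in these values was not tested. ST14low replicate 2 differed by transcript length. Of the 17 genes with the shorter transcripts, 13 lay above the mean of the other 3 ST14low libraries, with a median difference of 0.51 on the log2 scale. Of the 17 with the longer transcripts, 3 did, with a median of -0.18.

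Spearman's rho between transcript length and this difference was -0.75 across the 34 genes and -0.53 across all 13749 genes tested. Genes of 1 library share its preparation and are not independent, so these are descriptions. Length was taken from the ratio of deposited counts to RPKM. In ST14low replicate 3, the shallowest library, rho was 0.60 and 0.46, and in the other 6 libraries it lay between -0.07 and 0.34 across the 34 genes. Each library was set against the mean of the other 3 of its population, so the values of a population depend on each other. The short genes Cldn3, Cldn4, Cldn7 and Crb3 were highest among ST14low libraries in replicate 2, and the long genes Dsp and Tjp1 lowest. Without ST14low replicate 2, the median log2 fold change of the 17 shorter genes was 0.10 in place of -0.04, and 11 in place of 6 of them lay above 0. The median of the 17 longer genes was 0.05 in place of 0.03. The part of transcript length in these values was not tested further.

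**Figure D4:**
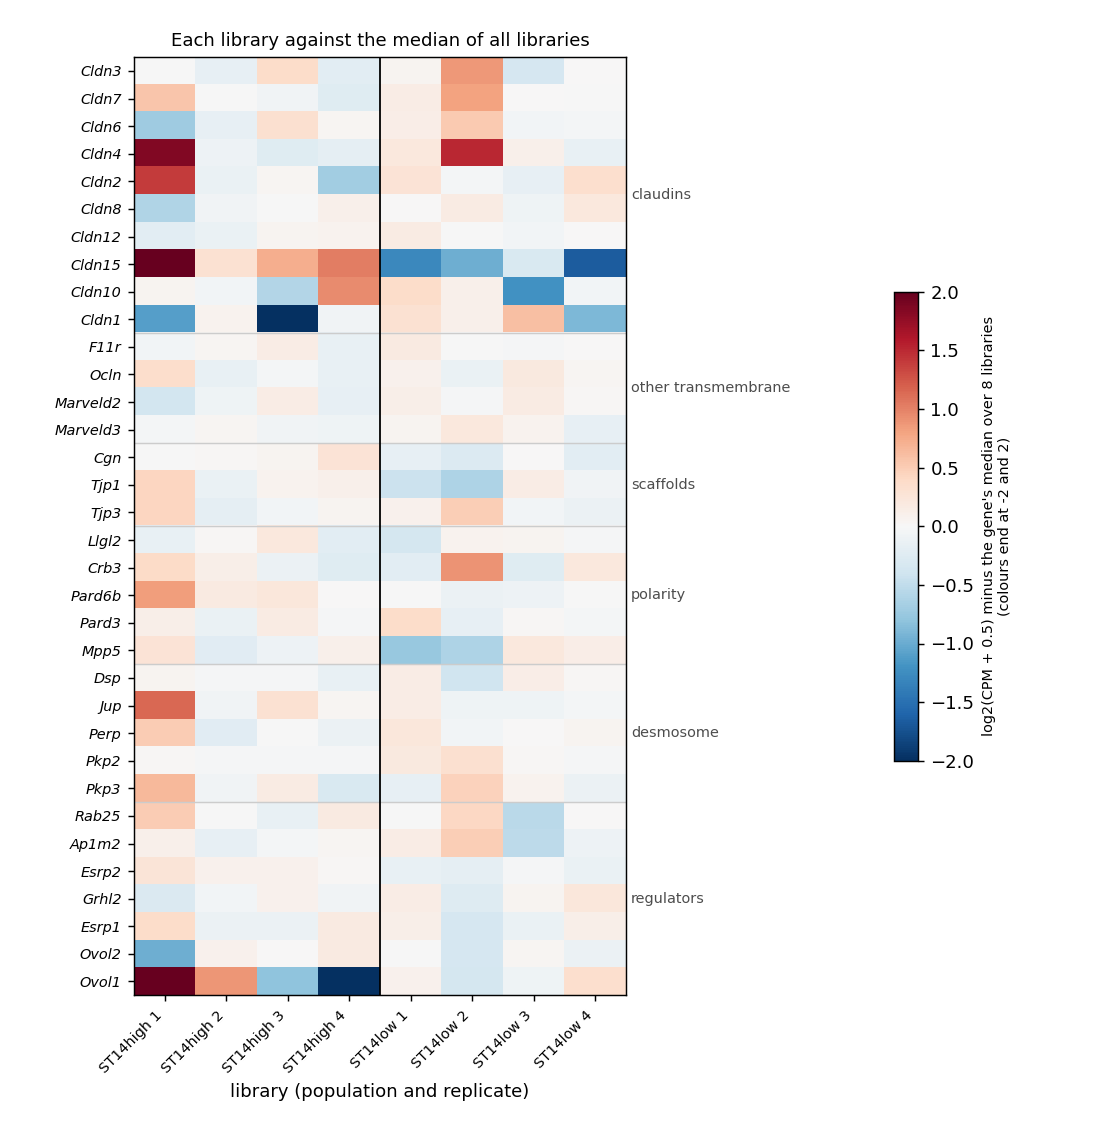
Heat map of log2(CPM + 0.5) minus the median over 8 libraries for each of the 34 genes (rows) in each library (columns); red is above and blue below the median, and colours end at -2 and 2. ST14high replicate 1 and ST14low replicate 2 show the most colour, and Cldn15 divides most clearly at the line between the populations.

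**Figure D5:**
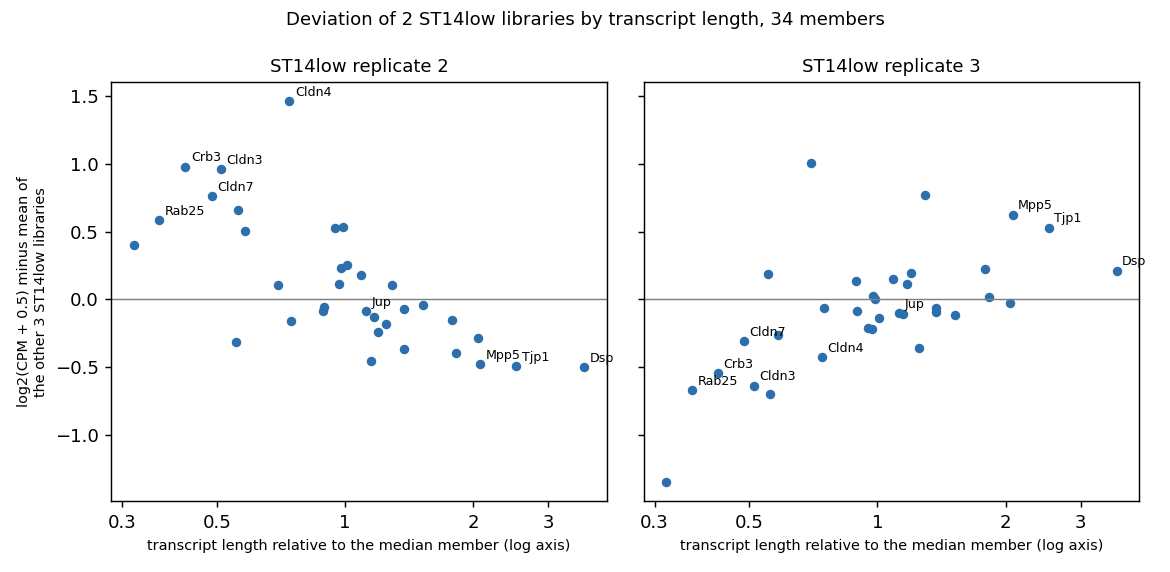
Difference of log2(CPM + 0.5) from the mean of the other 3 ST14low libraries for the 34 genes, against transcript length relative to the median of the 34 (log axis), for ST14low replicates 2 and 3. Points run downward with length in replicate 2 (rho -0.75) and upward in replicate 3 (rho 0.60).

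The steadiest of the 34 across all libraries was F11r, with a coefficient of variation of CPM of 7.52%, followed by Marveld3 (8.18%) and Cldn12 (8.25%). The most variable were Ovol1 (208%), Cldn15 (122%) and Cldn4 (70.2%).

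Other genes of the same pathways were taken from a list of 68, of which 56 passed the filter on low counts and 12 did not. In edgeR 0 of the 56 passed the adjusted threshold. There were 5 higher and 2 lower in ST14high at an unadjusted p under 0.05, where 6.89% and 2.68% of all genes are, and the median log2 fold change was 0.06. The highest of them by RPKM were Ctnnb1 (beta-catenin, 545), Ctnna1 (alpha-catenin, 258) and Cdc42 (a polarity GTPase, 216). Their log2 fold changes were -0.15 (SE 0.13), 0.10 (SE 0.13) and -0.19 (SE 0.14). Ctnnb1 was at 1433 to 1706 CPM in ST14high and 1629 to 1907 CPM in ST14low, overlapping ranges.

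The Crumbs gene Crb2 had the lowest p of these genes. It was at 30.4, 9.71, 8.57 and 14.3 CPM in ST14high and at 5.28, 4.05, 4.63 and 3.69 CPM in ST14low, separated populations with the highest value in ST14high replicate 1. The log2 fold change was 1.83 (SE 0.41, adjusted p = 0.202 in edgeR and 0.00381 in DESeq2), and 1.30 without that library. Ildr2, an angulin of tricellular junctions, was at 226, 50.0, 41.9 and 42.8 CPM in ST14high and at 31.5, 10.6, 40.3 and 19.8 CPM in ST14low. Its populations were separated, the nearest libraries being at 40.3 and 41.9 CPM, and its log2 fold change of 1.83 (SE 0.62) was 0.83 without ST14high replicate 1. Both genes were highest in ST14high replicate 1, where the mesothelial markers and the acinar markers were also highest. The part of those cells was not tested.

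The remaining genes at an unadjusted p under 0.05 were Ppl, Klf5, Elf3, Ctnnd1 and Pard6g. Ppl (periplakin) had a log2 fold change of 0.49 (SE 0.20). Elf3, an epithelial transcription factor, was at 753.8, 92.5, 78.4 and 79.5 CPM in ST14high and at 71.2 to 89.7 CPM in ST14low. The difference lay in ST14high replicate 1, since the log2 fold change of 1.65 (SE 0.71) was 0.07 without it. Klf5, another epithelial factor, had a log2 fold change of 1.12 (SE 0.42), and 0.60 without that library. Lower in ST14high were Ctnnd1 (p120-catenin, which stabilises cadherins), at 881, 861, 888 and 851 CPM against 1198, 1165, 1069 and 924 CPM, and Pard6g, a relative of Pard6b, at 4.60 to 7.96 CPM against 9.99 to 12.3 CPM. In both genes the populations did not overlap, with log2 fold changes of -0.32 (SE 0.13) and -0.70 (SE 0.25). Their adjusted p-values in edgeR were 0.493 and 0.426. Pard6b and Pard6g thus had fold changes of opposite sign, at 0.40 and -0.70; the difference between them was not tested.

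Claudins of other tissues were scarce. Of the 13 claudins in that list, only Cldn23 and Cldn5 reached 5 CPM in any library. Cldn23 was at 20.5 to 55.4 CPM in ST14high and 27.9 to 42.9 CPM in ST14low. Cldn5, the claudin of endothelium, was at 8.78, 2.67, 0.21 and 1.69 CPM in ST14high and at 3.92, 27.5, 18.1 and 4.53 CPM in ST14low, with a log2 fold change of -2.04 (SE 0.97). The 8 endothelial markers summed to 999, 197, 18.4 and 298 CPM and to 252, 697, 1008 and 233 CPM in the same libraries. The lowest sum and the lowest Cldn5 fell in the same library, ST14high replicate 3, and the part of endothelial RNA was not tested. Cldn13 and Cldn16 had 0 counts in all libraries.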

How the data were processed

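RNA of sorted mouse liver duct cells was sequenced in 8 libraries, 4 ST14high and 4 ST14low, grouped by the labels' titles. The raw read counts were deposited by the authors without normalization, per the file headers, for 26005 transcripts. The RPKM values were made by the authors, per the file headers, and entered no test. CASAVA 1.8.2, Bowtie 1.0.0 and build mm9 are named in the submitters' processing notes with no role stated; no source used here gives the counting program, its strand setting or its handling of shared reads. For the 3507 symbols with several transcripts (10 of the 34), the transcript with most counts was kept.

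edgeR 4.0.16 (R 4.3.3) tested all 13749 genes kept by filterByExpr, with TMM factors, the population as the only term and Benjamini-Hochberg adjustment (threshold 0.05, two-sided). DESeq2 1.42.0 and limma 3.58.1 served as other tools, and tables used Python 3.11.15. The procedure was tested on simulated data. The coefficient of biological variation was 38.4%, and totals of 6398307 to 42769980 counts set the precision of low genes. Intervals cover 95%.

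Members, lists and motifs were chosen with earlier results of these data known. The values of every library are given for the member of highest RPKM in each role, for members at an unadjusted p under 0.05 or with separated populations, and for the 3 of largest fold change; of the other pathway genes, those at an unadjusted p under 0.05 and the 3 of highest RPKM are named. Other genes given by library (Cldn4, Cldn2, Tjp1, Jup, Cldn5, Cldn23, Cldn9, Snai1, Snai2, Zeb2, Upk3b) were chosen after their values were seen. Other settings were DESeq2's size factors, upper-quartile factors, other filters, the longest transcript, a replicate block and leaving out each library; a fit without both ST14high replicate 1 and ST14low replicate 2, and DESeq2 without ST14high replicate 1, were chosen after seeing the data. The value of 1 duct cell marker is not reported here.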

Additional observations from a re-analysis of the deposited data

Results flagged for a closer look

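In each population of 4 libraries, the gap between the highest or lowest value and its nearest neighbour was compared with the whole range, for each of the 34 genes. Of 68 such groups, 7 held a library standing apart. The rule flags about 1 in 20 groups of independent, normally distributed values. Genes of 1 library share its preparation and CPM need not be normal, so the count is a description. ST14high replicate 1 held 4 of the 7. There Cldn4 was at 603 CPM against 141 to 156 in the other ST14high libraries, Cldn15 at 70.1 CPM against 13.4 to 22.4, and Ovol1 at 39.5 CPM against 0 to 3.78. Pkp2 was at 63.2 CPM against 60.8 to 60.9, a gap that is wide only relative to a narrow range. In ST14low replicate 2, Cldn4 was at 478 CPM against 150.0 to 193 and Cldn7 at 406 CPM against 230.03 to 257. In ST14low replicate 1, F11r was at 603 CPM against 521 to 530.4.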

How the results depend on the processing

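No member passed the adjusted threshold in any edgeR or limma fit, and DESeq2 called 1, Cldn15, also without ST14high replicate 1. Of the other pathway genes edgeR and limma called 0 in every fit, DESeq2 called 1 (Crb2), and DESeq2 without ST14high replicate 1 called 2 (Crb2 and Cldn5). The count of members at an unadjusted p under 0.05 was 1 in place of 2 with DESeq2's size factors, upper-quartile factors, no filter, limma, the replicate block, or without ST14high replicate 1 and ST14low replicate 2 together. It ran from 1 to 3 when 1 library was left out. Members with separated populations numbered 3 with all libraries, beside 883 of all 13749 genes. When 1 library was left out they numbered 2 to 5, beside 1147 of 14040 to 1777 of 13986 genes. Without both libraries they numbered 7, beside 2467 of 13866 genes. In DESeq2 without ST14high replicate 1 they numbered 5, beside 1639 of 13881 genes. Fewer libraries separate more easily, among all genes too. With no filter on low counts there were 2, beside 970 of 16715 genes. Under a cutoff of 5 CPM there were 4 among the 32 members kept, beside 671 of 11247 genes. Same-numbered libraries deviated from their population means with correlations of -0.12 to 0.05. With so few libraries this cannot decide whether replicate numbers pair them. With the replicate block Cldn15 had a log2 fold change of 2.34 and Ovol1 of 0.23. The sign of Ovol1 turned without ST14high replicate 1 (-0.29 in edgeR and in DESeq2, against up to 2.96 when another library was left out), without both libraries (-0.42) and in limma (-0.87), and that of Cldn6 without both libraries (0.052); the cause was not tested. Of 23 members within their SE of 0, 19 changed sign under at least 1 setting. The median over members lay between -0.08 and 0.08. Low counts and the spread between libraries limit Cldn1 (287 counts, 0 to 65 per library) and Ovol1 (916 counts, 625 of them from ST14high replicate 1).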
